A study of Mus musculus with 6 samples.

Results

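Smooth muscle contractile and regulatory genes were followed in whole lung of mice that express a truncated BMP receptor under a smooth muscle promoter. The group held 34 genes chosen by name, and they were read by 73 of the 45101 probe sets of the array, taking every probe set whose only gene symbol on the platform was that of a member. All 34 members had at least 1 probe set. The brightest probe set of each member, called its main probe set below, passed the filter on low intensities in 34 of 34 genes, and 62 of the 73 probe sets passed in all. The array held 18193 genes with a symbol of their own, of which 12557 had a main probe set that passed.

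Each array came from an individual female FVB/N mouse, with 2 mice in each of 3 groups, and whole lung homogenate was measured on the Affymetrix Mouse Genome 430 2.0 array. Control mice carried SM22-rtTA alone, a doxycycline-activated transactivator under the promoter of the smooth muscle gene Tagln (SM22). The other mice were heterozygous for SM22-rtTA and for TetO7-BMPR2-R899X, a doxycycline-responsive transgene for a BMP type II receptor with a truncating mutation, and had either near normal right ventricular systolic pressure (RVSP, R899X normal RVSP) or a clearly raised one (R899X high RVSP). Every mouse, controls included, carried the transactivator and ate doxycycline over 9 weeks, starting at an age of 4 weeks and ending with death at 13 weeks. The pressures themselves are not used here, since the labels name only the class. The label of control 1 leaves out the sex that the series description gives for all mice. The SM22 promoter limits transgene expression mainly to smooth muscle, which is a small share of the cells in a lung homogenate, and fewer cells of a type cannot be told apart from less RNA per cell.

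Smooth muscle shortens when myosin heavy chain slides along actin, a step that starts when myosin light chain kinase phosphorylates the regulatory light chain and ends when myosin phosphatase removes the phosphate. Calponin, caldesmon, transgelin and tropomyosin lie on the actin filament and tune or stabilise it, and dense bodies and adhesion plaques pass the force to the cell edge. Most of these genes are switched on together by serum response factor (SRF) with its coactivator myocardin, which is why they serve as markers of the contractile state of vascular smooth muscle. In the lung they mark the walls of arteries, veins and airways, while pericytes share part of the set.

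Paired intensities name replicate 1 before replicate 2, numbers that carry no order of their own, and differences are on the scale of log2(intensity + 16) with the standard error (SE) from limma. Median intensity per array ranged from 128 to 141. Control 1 and R899X normal RVSP 1 lay farthest from the other arrays, with mean root mean square log2 distances of 0.496 and 0.492 against at most 0.420, and had beta-actin 3'/5' ratios of 1.89 and 1.64 against 1.27 to 1.45. The medians and counts of direction are therefore also given without them. Their Gapdh 3'/5' ratios were not the highest, at 0.973 and 0.7 against 0.721 to 1.03 on the other arrays. The defining smooth muscle markers Acta2, Myh11 and Tagln were well above the filter limit of 74.9 on every array.

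Across all members the levels moved little. The highest array exceeded the lowest by a median of 1.5-fold per gene, from 1.18-fold for Cald1 to 3.94-fold for Myocd, and by under 2-fold in 31 of 34 genes. The median over all 12557 genes was 1.45-fold. The standard deviation between mice of the same group had a median of 0.201 on the log2 scale over the members and of 0.192 over all genes. No member differed between groups after adjustment. With limma and Benjamini-Hochberg adjustment over 27022 probe sets, 0 of 62 member probe sets passed in R899X normal RVSP against control (smallest adjusted p = 0.987), in R899X high RVSP against control (0.801), in R899X high against normal RVSP (1) and in all R899X mice against control (0.832). The share of all probe sets that passed was 0% in each comparison. An ordinary linear model, with 3 residual degrees of freedom, also called 0 probe sets on the whole array, so its 0 member calls add no evidence. At an unadjusted limma p under 0.05 stood 2, 3, 3 and 3 of the 62 member probe sets, against 4.34%, 5.65%, 2.62% and 5.92% of all probe sets. The 95% intervals of the log2 difference had a median half-width of 0.442 between groups of 2, and in 31, 32 and 30 of 34 genes the interval lay within 1 in either direction in the 3 pairwise comparisons. For those genes the intervals leave out a doubling or a halving, and they leave room for smaller differences.

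**Figure D1:**
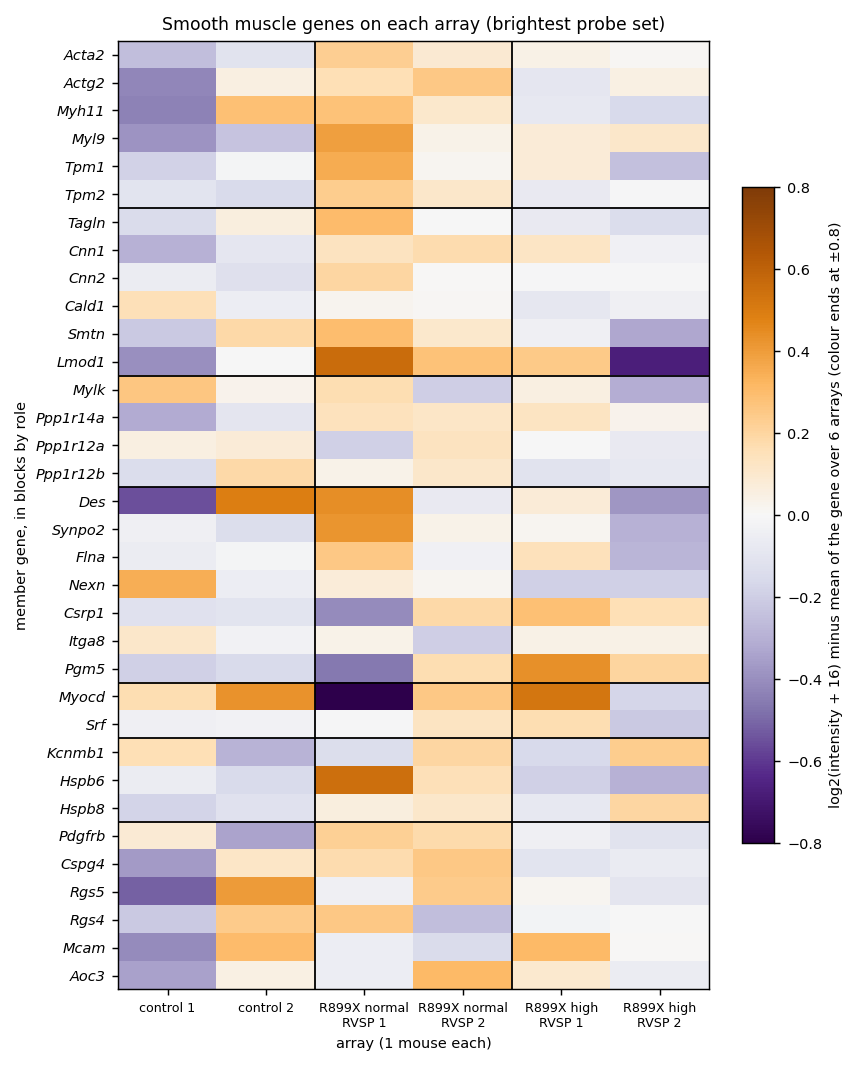
Each row is a smooth muscle gene by its brightest probe set and each column an array (1 mouse), with colour giving log2(intensity + 16) minus the mean of the gene over the 6 arrays; black lines separate the 3 groups and the 7 roles. The upper blocks are mostly below their mean on control 1 and above it on R899X normal RVSP 1, where 14 of 34 genes had their lowest and 14 of 34 their highest value.

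R899X mice with normal RVSP were first compared with controls, which asks what the mutation goes with when pressure is not raised. By main probe set the actin, myosin and tropomyosin genes lay higher in 6 of 6 cases, with a median log2 difference of 0.32. That median was 0.23 with 5 of 6 higher without control 1, 0.50 without control 2, and 0.20 with 5 of 6 higher without control 1 and R899X normal RVSP 1. The other kept probe sets of Tpm1 differed by -0.12 and -0.18, and Tpm1 was lower when read by the mean of its kept probe sets. Over all members by main probe set, 25 of 34 genes were higher, with a median of 0.20. Over all genes the median was 0.02 and 53.7% were higher. In 15 of 34 members (44.1%) both R899X normal RVSP arrays exceeded both controls, against 15.0% of all genes, and in 0 of 34 both lay below both controls, against 12.0%. None of these differences passed the adjusted test. The median depended on control 1: without it the value was 0.09 with 23 of 34 higher, whereas without control 2 it was 0.27 with 27 of 34 higher.

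Myl9 encodes the regulatory light chain of smooth muscle myosin, the substrate of myosin light chain kinase. Its intensity was 2816 and 3127 in controls, 4822 and 3764 with normal RVSP, and 3875 and 3969 with high RVSP. All 4 R899X arrays lay above both controls. The difference was 0.52 ± 0.17 (SE) for normal RVSP against control and 0.40 ± 0.17 for high RVSP against control, with limma adjusted p = 0.987 and 0.857. Over all R899X mice it was 0.46 ± 0.14, a 1.38-fold higher level (limma unadjusted p = 0.0130, adjusted p = 0.832), and high against normal RVSP differed by -0.12 ± 0.17.

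Acta2, smooth muscle alpha-actin, showed the same order of groups on a narrower range. The controls read 6972 and 7698, normal RVSP mice 9730 and 8824, and high RVSP mice 8524 and 8343. The groups did not overlap, with the controls lowest and the normal RVSP mice highest. The difference from control was 0.34 ± 0.14 with normal RVSP (limma adjusted p = 0.987) and 0.20 ± 0.14 with high RVSP (adjusted p = 0.884). The other probe sets of Acta2 stayed below the filter, at 61.8 or less on every array.

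Actg2, the gamma-actin of enteric and airway smooth muscle, read 447 and 626 in controls, 675 and 723 with normal RVSP, and 566 and 623 with high RVSP. Both normal RVSP arrays were above both controls, by 0.39 ± 0.21, and the high RVSP arrays lay between the controls. Myh11, the smooth muscle myosin heavy chain, read 823 and 1365 in controls, 1357 and 1201 with normal RVSP, and 1055 and 999 with high RVSP. The controls held both the lowest and the highest value of the gene, and the high RVSP arrays lay below the normal RVSP arrays by -0.31 ± 0.24 (limma adjusted p = 1).

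The tropomyosins wind along the actin filament. Tpm2 read 2761 and 2668 in controls, 3505 and 3205 with normal RVSP, and 2824 and 2951 with high RVSP. At this main probe set the groups did not overlap, in the order control, high RVSP, normal RVSP. The difference of normal RVSP from control was 0.30 ± 0.14 (adjusted p = 0.987). Probe set 1425028_a_at was also higher with normal RVSP, by 0.30 ± 0.19, but its high RVSP arrays overlapped with the controls. The dimmer 1419739_at differed from control by -0.27 ± 0.30 with normal RVSP and -0.21 ± 0.30 with high RVSP. The main probe set of Tpm1 read 2868 and 3219 in controls, 4168 and 3296 with normal RVSP, and 3436 and 2737 with high RVSP. R899X normal RVSP 1 stood highest and R899X high RVSP 2 lowest, and the difference of high from normal RVSP was -0.27 ± 0.18.

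Tagln, whose promoter drove the transactivator, is an actin-binding protein used as an early smooth muscle marker. It read 4115 and 4739 in controls, 5622 and 4549 with normal RVSP, and 4330 and 4124 with high RVSP. The differences from control were 0.20 ± 0.16 with normal RVSP and -0.06 ± 0.16 with high RVSP, with 95% intervals of -0.18 to 0.57 and -0.44 to 0.32, so neither a modest gain nor a modest loss could be told from no difference. Both high RVSP arrays lay below both normal RVSP arrays, by -0.26 ± 0.16 (limma adjusted p = 1).

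Cnn1, basic calponin, which restrains the myosin ATPase, read 421 and 488 in controls, 573 and 590 with normal RVSP, and 569 and 509 with high RVSP. All 4 R899X arrays were above both controls, with a difference of 0.29 ± 0.16 (limma adjusted p = 0.841). Cnn2, a calponin of smooth muscle and other cells, read 8209 and 7875 in controls, 9810 and 8559 with normal RVSP, and 8496 and 8513 with high RVSP. It too did not overlap with the controls in any R899X mouse, though the difference was 0.13 ± 0.13. Smtn, smoothelin, a marker of contractile smooth muscle, read 422 and 560 in controls, 608 and 530 with normal RVSP, and 477 and 389 with high RVSP. The high RVSP arrays lay below the normal RVSP arrays by -0.38 ± 0.22.

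Lmod1, leiomodin, which nucleates actin filaments, was among the dim members at 66.0 and 91.7 in controls, 143 and 115 with normal RVSP, and 112 and 51.7 with high RVSP. It had the largest positive difference of the members between normal RVSP and control, 0.62 ± 0.37, with a 95% interval from -0.23 to 1.47. The high RVSP mice differed between themselves more than the groups did. Cald1, caldesmon, was flat by its main probe set, from 10014 to 11805 over the 6 arrays, and its difference from control was -0.03 ± 0.15 with normal RVSP and -0.11 ± 0.15 with high RVSP.

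Phosphorylation of the myosin light chain is set by Mylk, its kinase, and by a phosphatase of which Ppp1r12a and Ppp1r12b are targeting subunits and Ppp1r14a (CPI-17) an inhibitor. By main probe set these 4 genes did not share a direction against control. In high against normal RVSP 4 of 4 were lower, by a median of -0.08. With each gene read by the mean of its kept probe sets, Mylk, Ppp1r12a and Ppp1r12b were instead higher in that comparison. Ppp1r14a read 1516 and 1765 in controls, 2088 and 2046 with normal RVSP, and 2070 and 1924 with high RVSP. All 4 R899X arrays lay above both controls, by 0.31 ± 0.13 (limma adjusted p = 0.832). The main probe set of Mylk read 7918 and 6745 in controls, 7445 and 5787 with normal RVSP, and 6860 and 5351 with high RVSP. Its difference over all R899X mice was -0.21 ± 0.17 with overlapping groups, and that of 1425505_at was -0.16 ± 0.23, also with overlap. The dimmest, 1425504_at, read 277 and 265, 220 and 169, and 212 and 215 in that order. There all 4 R899X arrays lay below both controls, with a difference of -0.39 ± 0.20 (limma adjusted p = 0.832). The main probe sets of Ppp1r12a and Ppp1r12b spanned 3606 to 4519 and 770 to 965, and their differences from control were -0.10 ± 0.14 and -0.03 ± 0.15 over all R899X mice.

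Among the linkage and adhesion genes, 4 of 7 were higher and 3 of 7 lower with normal RVSP than in controls, with a median difference of 0.03. Des, desmin, the intermediate filament of muscle, read 610 and 1277 in controls, 1230 and 859 with normal RVSP, and 955 and 691 with high RVSP. The controls differed from each other by more than any 2 group means did, and the standard error of a group difference was 0.35. Synpo2 is an actin-bundling protein of the Z-disc and dense body. Its main probe set read 454 and 425 in controls, 633 and 480 with normal RVSP, and 472 and 377 with high RVSP. There the high RVSP arrays lay below the normal RVSP arrays by -0.37 ± 0.22, and at 1452879_at by -0.32. Probe set 1441206_at differed by -0.0036. The dimmest, 1450828_at, ran the other way, at 73.1 and 79.9, 107 and 100, and 121 and 130 in the same order. It was higher with high RVSP by 0.24 ± 0.26 against normal RVSP and 0.61 ± 0.26 against control (limma adjusted p = 0.857).

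Pgm5 (aciculin), a protein of muscle adhesion plaques, was higher with high than with normal RVSP, where most contractile genes were lower. It read 737 and 757 in controls, 609 and 948 with normal RVSP, and 1148 and 976 with high RVSP. Both high RVSP arrays exceeded every other array, by 0.49 ± 0.23 against control (limma adjusted p = 0.857) and 0.47 ± 0.23 against normal RVSP. Csrp1, a LIM protein of smooth muscle, read 6288 and 6341 in controls, 5128 and 7737 with normal RVSP, and 8284 and 7626 with high RVSP. The difference between high RVSP and control was 0.33 ± 0.20 with no overlap of those groups. Nexn, nexilin, an actin-binding protein that heart muscle also expresses, was lower in both high RVSP arrays (785 and 784) than in controls (1145 and 862), by -0.33 ± 0.19 (adjusted p = 0.868). Flna, the actin cross-linker filamin A, spanned 3745 to 5454, and its differences were 0.15 ± 0.19 and -0.03 ± 0.19 with normal and high RVSP against control.

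Itga8, the alpha subunit of an integrin of smooth muscle and mesenchymal cells, gave the smallest unadjusted p of all member probe sets, but not at its main probe set. The dimmer probe set 1427489_at read 2899 and 2663 in controls, 3662 and 2533 with normal RVSP, and 4704 and 4966 with high RVSP. Both high RVSP arrays were above the other 4. The difference was 0.80 ± 0.19 against control (limma unadjusted p = 0.00332, adjusted p = 0.801) and 0.66 ± 0.19 against normal RVSP (unadjusted p = 0.00884, adjusted p = 1). The main probe set, 1454966_at, read 15011 and 13596, 14202 and 12115, and 14278 and 14289 in the same order, with a difference of 0.00 ± 0.15 between high RVSP and control. Without control 1 and R899X normal RVSP 1 the probe set 1427489_at had a limma adjusted p of 0.00401 against control and 0.00296 against normal RVSP. That fit leaves 1 mouse in each of those groups, called 313 and 56 probe sets over the whole array, and its lone mice are assumed to vary like the others.

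**Figure D2:**
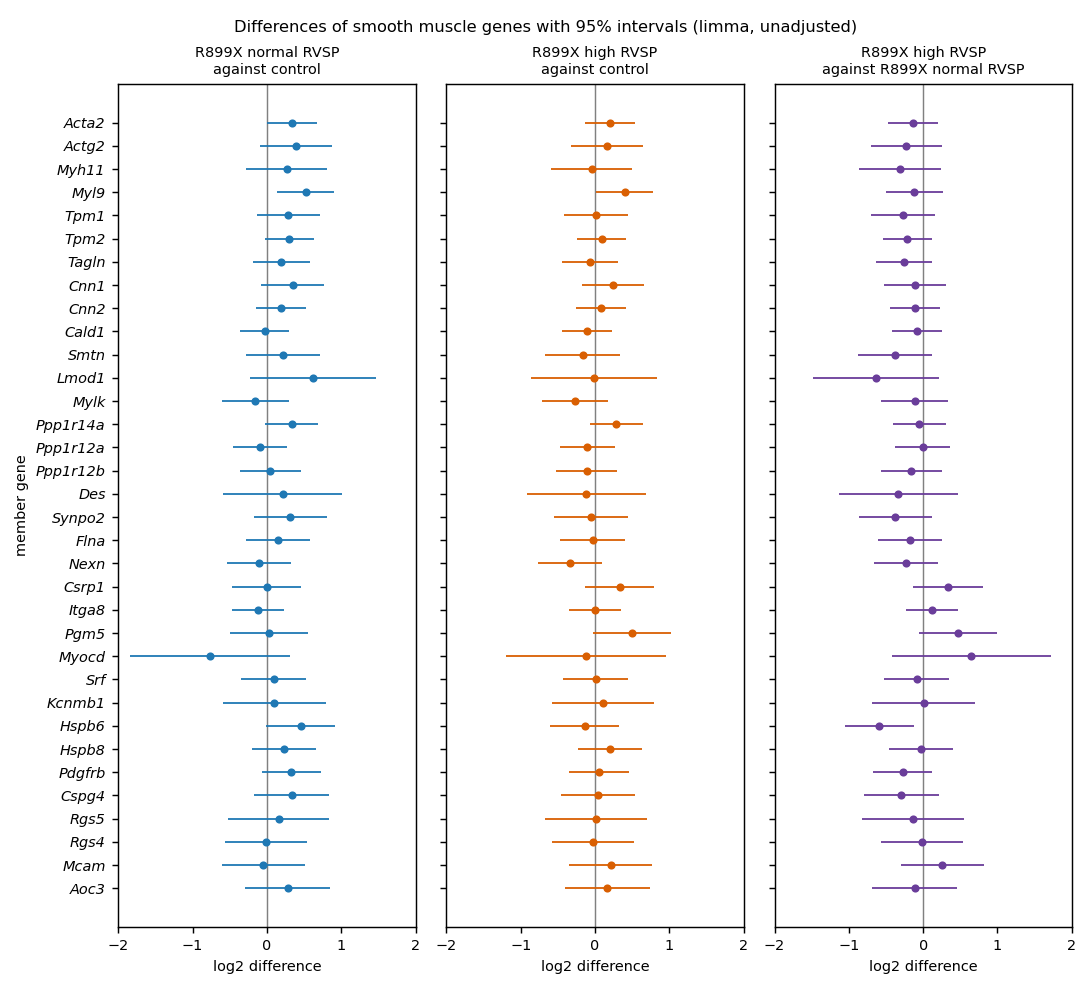
Points are log2 differences of the 34 genes by main probe set in the 3 pairwise comparisons, and bars are 95% intervals from the limma fit, not adjusted for the number of probe sets. Bars exclude 0 for Acta2 and Myl9 with normal RVSP against control, for Myl9 with high RVSP against control and for Hspb6 with high against normal RVSP.

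Transcription of these genes rests largely on Srf and Myocd. Srf read 692 and 697 in controls, 706 and 777 with normal RVSP, and 798 and 610 with high RVSP by its main probe set, a difference of 0.09 ± 0.19 and 0.01 ± 0.19 from control. Its dimmer probe set read 238 and 234 in controls and 273, 308, 284 and 287 in the R899X mice. All 4 were above both controls, by 0.27 on the log2 scale. Myocd, myocardin, was the member with the widest spread, at 163 and 199 in controls, 53.9 and 174 with normal RVSP, and 213 and 126 with high RVSP. R899X normal RVSP 1, the array on which most contractile genes were highest, held its lowest value, and the difference from control had a 95% interval from -1.84 to 0.30.

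SRF binds the CArG box, a short A/T core between a pair of C and a pair of G. RefSeq promoters (build GRCm38.p6, from 250 bases before to 50 after an annotated start) were at hand for 27 of the 34 members, and a script searched them for the CArG box and for the CArG-like element with 1 G or C in the core. Both elements read the same class of letters on either strand, so that 1 search covers both, and they do not overlap each other here. The 7 members without an entry were Aoc3, Actg2, Myh11, Tagln, Myocd, Nexn and Pdgfrb. The CArG box stood in 3 of the 31 member promoters (9.68%), those of Myl9, Cnn2 and Srf itself, and in 1.63% of all 32851 promoters. The CArG-like element stood in 3 of 31 (Acta2, Myl9 and Hspb6) and in 8.50% of all. The 200 bases before the start are printed for Myl9, Acta2, Cnn2 and Srf, which hold an element there, with CArG boxes and CArG-like elements in capitals, read in the direction of the gene. They lie at chr2:156775264-156775463 on the plus strand, chr19:34255374-34255573 on the minus strand, chr10:79988400-79988599 on the plus strand and chr17:46556163-46556362 on the minus strand.
Myl9: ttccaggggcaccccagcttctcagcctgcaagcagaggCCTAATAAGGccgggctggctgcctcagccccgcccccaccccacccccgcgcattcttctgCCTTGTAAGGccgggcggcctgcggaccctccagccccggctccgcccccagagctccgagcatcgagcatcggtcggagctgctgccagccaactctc
Acta2: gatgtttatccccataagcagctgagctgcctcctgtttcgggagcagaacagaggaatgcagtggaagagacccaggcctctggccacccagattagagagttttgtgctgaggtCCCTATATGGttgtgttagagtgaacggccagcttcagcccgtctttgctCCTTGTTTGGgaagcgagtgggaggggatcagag
Cnn2: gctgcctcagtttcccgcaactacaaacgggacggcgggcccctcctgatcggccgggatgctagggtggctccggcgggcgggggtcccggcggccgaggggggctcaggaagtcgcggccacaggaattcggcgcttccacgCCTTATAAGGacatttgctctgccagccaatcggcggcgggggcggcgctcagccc
Srf: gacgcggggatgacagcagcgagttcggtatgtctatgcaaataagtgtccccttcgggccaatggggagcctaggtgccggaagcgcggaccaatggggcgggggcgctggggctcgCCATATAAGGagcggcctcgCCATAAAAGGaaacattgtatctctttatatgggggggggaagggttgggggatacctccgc

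In Myl9 the CArG box began 161 bases and the CArG-like element 99 bases before the start, in Acta2 the pair of CArG-like elements began 84 and 34 bases before it, in Cnn2 the box began at 56, and in Srf the boxes began at 82 and 62. Longer RefSeq transcripts of Acta2, Myl9 and Srf begin further upstream, so that 200, 56 and 200 of the printed bases lie inside the span of the gene. By main probe set, 7 members had all 4 R899X arrays above both controls. Of these, Cnn2 and Myl9 held a CArG box in these promoters and Acta2 only CArG-like elements, while Cnn1, Hspb8, Ppp1r14a and Tpm2 held neither. Of the 27 members with a promoter, 11.1% held a CArG box and 11.1% a CArG-like element, beside 1.81% and 9.69% of all genes with a promoter. A link between the elements and the levels was not tested. A match of letters is a description and no measurement of binding.

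Kcnmb1, the beta subunit of the calcium-activated potassium channel of smooth muscle, was dim at its main probe set, between 92.3 and 140 with all groups overlapping. The main probe set of Hspb8, a small heat shock protein, read 452 and 473 in controls, 536 and 555 with normal RVSP, and 484 and 590 with high RVSP. All 4 R899X arrays lay above both controls there, by 0.22 ± 0.16. The dimmer 1456434_x_at and 1417014_at overlapped with the controls, with differences of 0.09 ± 0.19 and -0.13 ± 0.23. Hspb6 (Hsp20), a small heat shock protein of smooth, heart and skeletal muscle that takes part in relaxation, was the 1 member whose R899X groups lay on opposite sides of the controls. It read 473 and 443 in controls, 729 and 551 with normal RVSP, and 431 and 399 with high RVSP. The difference of high from normal RVSP was -0.59 ± 0.20 (limma unadjusted p = 0.0187, adjusted p = 1). The cardiac muscle markers had their highest mean on the array where Hspb6 was highest, R899X normal RVSP 1, and their lowest where it was lowest, R899X high RVSP 2. Mb (myoglobin) and Ckm (muscle creatine kinase), which heart and skeletal muscle share, had the same order of groups without overlap. Mb read 636 and 662 in controls, 1158 and 1027 with normal RVSP, and 440 and 317 with high RVSP, a difference of -1.51 ± 0.20 between high and normal RVSP. Ckm read 300 and 326, 550 and 437, and 292 and 162, a difference of -1.11 ± 0.29 (limma adjusted p = 1 in both). These were 2 of the 5 skeletal muscle markers that passed the filter. Acta1 ran the other way in high against normal RVSP (0.52 ± 0.26), and Atp2a1 and Mylpf differed by 0.06 and -0.01. The part of striated muscle RNA in the values of Hspb6 was not tested.

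The mural cell genes mark pericytes as well as smooth muscle. Pdgfrb, the PDGF receptor of mural cells, read 6361 and 4730 in controls, 6995 and 6797 with normal RVSP, and 5826 and 5561 with high RVSP, and Cspg4 (NG2), a pericyte proteoglycan, read 302 and 428, 445 and 472, and 366 and 375 in that order. In both genes the normal RVSP arrays exceeded every other array, by 0.33 ± 0.17 and 0.34 ± 0.22 over control (limma adjusted p = 0.987 in both). Rgs5, a G protein regulator of pericytes, read 335 and 647 in controls, so that the spread between controls covered all 4 R899X arrays, which lay between 453 and 577. The same held for Mcam (CD146), an adhesion molecule of mural and endothelial cells, except for R899X high RVSP 1, with 1285 and 2115 in controls and 1541 to 2120 in the R899X mice. Rgs4, another G protein regulator, spanned 481 to 688 at its main probe set, with a difference of -0.02 ± 0.21 over all R899X mice. Its dimmer probe sets were higher there, 1416287_at by 0.34 ± 0.20 with overlap and 1448285_at by 0.41 ± 0.22 without overlap. Their limma adjusted p values were 0.855 and 0.837. Aoc3, an amine oxidase of smooth muscle and endothelium, spanned 179 to 291 with all groups overlapping.

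R899X mice with high RVSP were next compared with controls, which asks what the mutation goes with when pressure is raised. The members were spread around zero, with 18 of 34 genes higher and 16 lower and a median of 0.01, beside a median of -0.02 and 46.1% higher over all genes. In 9 of 34 (26.5%) both high RVSP arrays exceeded both controls, against 14.3% of all genes, and in 3 of 34 (8.82%) both lay below, against 18.3%. The 9 were Acta2, Cnn1, Cnn2, Csrp1, Hspb8, Myl9, Pgm5, Ppp1r14a and Tpm2, and the 3 were Hspb6, Nexn and Ppp1r12a. The median changed sign, to -0.06 with 13 of 34 higher, without control 1, and to -0.03 without R899X high RVSP 1. Leaving out control 2 or R899X high RVSP 2 gave 0.08 each.

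High and normal RVSP mice, which share the transgene, were compared to follow pressure. Here 28 of 34 members were lower with high RVSP, with a median of -0.13, beside a median of -0.03 and 57.5% lower over all genes. In 16 of 34 (47.1%) both high RVSP arrays lay below both normal RVSP arrays, against 19.8% of all genes, and in 3 of 34 (8.82%), Itga8, Mcam and Pgm5, both lay above, against 11.5%. By main probe set all 6 filament genes and all 6 actin-binding regulators were lower, by medians of -0.22 and -0.18. In 10 of these 12 the arrays did not overlap. With each gene read by the mean of its kept probe sets, Tpm1 and Cald1 were instead higher. Both other kept probe sets of Tpm1 were higher with high RVSP without overlap, by 0.27 and 0.54. None of the 12 passed the adjusted test. The median was -0.21 without R899X normal RVSP 2. Without R899X normal RVSP 1, with or without control 1, 27 of 34 were lower and 1 of the 6 filament genes, Myl9, was higher.

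These comparisons share arrays, and the values stand side by side for that reason. Pooling the R899X mice gave 26 of 34 members higher than control, with a median of 0.12, beside 49.9% higher over all genes, and in 7 of 34 (20.6%) all 4 R899X arrays exceeded both controls, against 6.25% of all genes, while in 0 of 34 all 4 lay below, against 6.23%. By main probe set the 7 were Acta2, Cnn1, Cnn2, Hspb8, Myl9, Ppp1r14a and Tpm2. The further kept probe sets of Hspb8 and Tpm2 overlapped with the controls. The median over the members was 0.04 with 21 of 34 higher without control 1, 0.07 without either R899X replicate 1, and 0.19 without control 2. Without control 1 and R899X normal RVSP 1 together it was 0.03 with 18 of 34 higher, and for normal RVSP against control it was then 0.13 with 22 of 34 higher. With the beta-actin 3'/5' ratio as a covariate the pooled median was 0.06 with 21 of 34 higher.

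Extreme values were concentrated on a few arrays. Of the 34 members, 14 (41.2%) were lowest on control 1, beside 21.4% of all genes, and 14 (41.2%) were highest on R899X normal RVSP 1, beside 27.5% of all genes. R899X high RVSP 2 held the lowest value of 9 members (26.5%), beside 15.1% of all genes. The mean deviation of the 6 filament genes was -0.30 on control 1 and -0.03 on control 2, 0.27 and 0.10 on the normal RVSP arrays, and -0.01 and -0.04 on the high RVSP arrays. Both R899X normal RVSP arrays thus lay above the other 4 for the filament genes, while the high RVSP arrays lay near control 2.

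**Figure D3:**
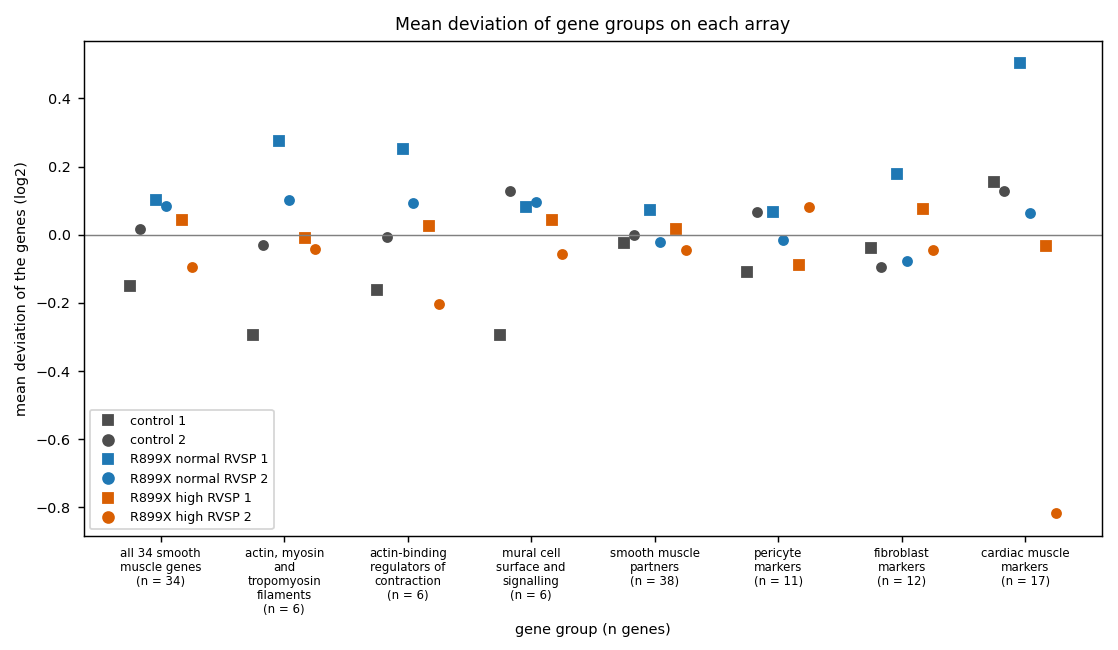
Each point is the mean over a gene group of log2(intensity + 16) minus the gene's mean over the 6 arrays, on 1 array; squares are replicate 1 and circles replicate 2, and colours are the 3 groups. Control 1 is lowest for the filament genes (-0.30) and R899X normal RVSP 1 highest (0.27), and cardiac muscle markers run from 0.50 on R899X normal RVSP 1 to -0.82 on R899X high RVSP 2.

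Probe sets of the same gene often disagreed. For 16 members more than 1 probe set passed the filter, and of their 28 further probe sets 14 pointed the same way as the main one and 14 the other way in normal RVSP against control, 14 and 14 in high RVSP against control, and 13 and 15 in high against normal RVSP. Of these 28, 9 (32.1%) had both normal RVSP arrays above both controls and 1 (3.57%) below, beside 14.4% and 15.1% of all probe sets. In high against normal RVSP 3 (10.7%) lay below and 6 (21.4%) above without overlap, beside 15.5% and 16.7%. When each gene was read by the mean of its probe sets, 23 of 34 were lower in that comparison with a median of -0.09, and the median for high RVSP against control was 0.11 with 22 of 34 higher.

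Cald1 shows the size such a disagreement could reach. Its main probe set spanned 1.18-fold, but probe set 1424768_at read 1270 on control 1 and 1625 on R899X normal RVSP 1 against 3819 to 5158 on the other 4 arrays, and 1424770_at read 1207 and 1354 against 2397 to 2730. These are the arrays with the highest beta-actin 3'/5' ratios, while their Gapdh 3'/5' ratios were not the highest. The part of RNA quality in this split was not tested. The 2 arrays were the lowest pair in 8 of 62 member probe sets (12.9%) and in 12.0% of all. Probe sets 1453163_at of Ppp1r12a and 1456623_at of Tpm1 had the same pair lowest, at 421 and 287 against 591 to 861, and at 511 and 472 against 625 to 883. For Ppp1r12a this gave a difference of 0.95 ± 0.35 between high and normal RVSP (limma unadjusted p = 0.0257, adjusted p = 1), while its main probe set gave -0.01 ± 0.16.

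**Figure D4:**
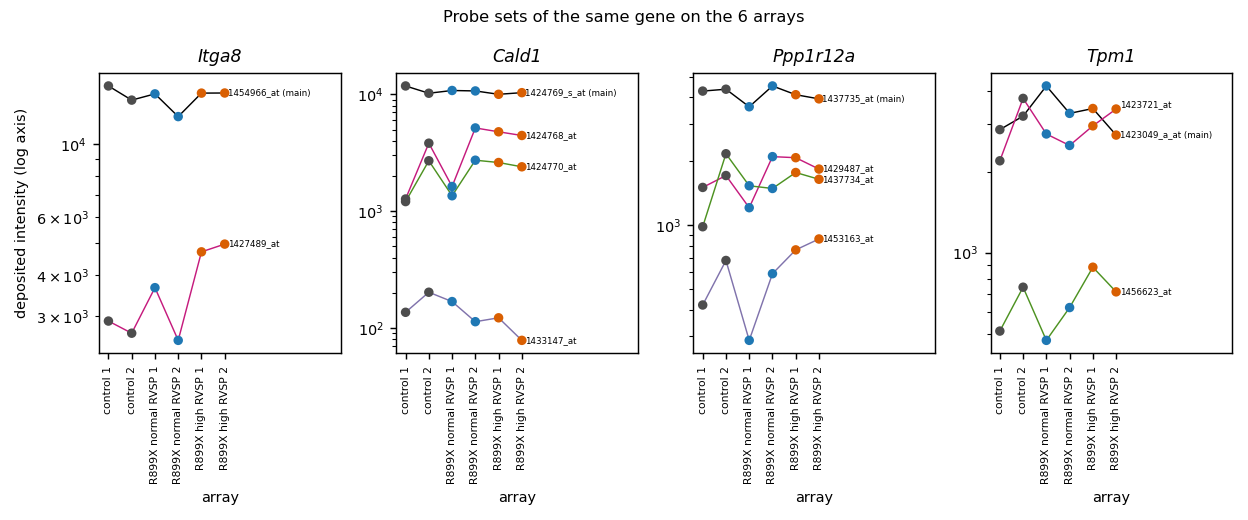
Deposited intensity (log axis) of every probe set that passed the filter for 4 genes on the 6 arrays, with points coloured by group (grey control, blue R899X normal RVSP, orange R899X high RVSP) and lines joining the values of a probe set. The main probe sets of Itga8 and Cald1 are flat, while 1427489_at of Itga8 is highest on both high RVSP arrays (4704 and 4966) and 1424768_at and 1424770_at of Cald1 are lowest on control 1 and R899X normal RVSP 1.

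Other genes of smooth muscle contraction and adhesion had median differences near 0. Of 38 such partners that passed the filter, among them integrins, focal adhesion proteins and vasoconstrictor receptors, 23 were higher and 15 lower with normal RVSP than in controls (median 0.03), 16 and 22 with high RVSP (median -0.02), and 14 and 24 in high against normal RVSP (median -0.04), and 0 passed the adjusted limma test. Itga5, the alpha subunit of the fibronectin receptor, read 141 and 210 in controls and 344 and 237 with normal RVSP (0.68 ± 0.28). Tbxa2r, the thromboxane receptor, read 180 and 247 in controls and 341, 277, 298 and 337 in the R899X mice, a difference of 0.53 ± 0.21 with no overlap. These 2 were the partners at an unadjusted limma p under 0.05 in any comparison, 1 each in normal RVSP and in all R899X mice against control.

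Markers of other cell types were set beside the members. Of 17 cardiac muscle markers, which lung holds in the walls of pulmonary veins, 12 were higher with normal RVSP than in controls (median 0.18), 16 were lower with high RVSP (median -0.57), and 17 were lower with high RVSP when set against normal RVSP (median -0.72). Their summed intensity was 34576 and 32281 in controls, 42200 and 31875 with normal RVSP, and 29297 and 15865 with high RVSP, and no marker was at 0. They were lowest on R899X high RVSP 2, whereas the mean of the filament genes was lowest on control 1. Without R899X high RVSP 2 the cardiac median in high against normal RVSP was -0.31. That of all members was -0.11 with 24 of 34 lower, and that of the filament genes -0.19 with 6 of 6 lower. Without R899X normal RVSP 1 these medians were -0.53, -0.12 and -0.13. The cardiac median of normal RVSP against control was -0.07 without R899X normal RVSP 1 and 0.38 without R899X normal RVSP 2, and for high RVSP against control, leaving out R899X high RVSP 1 gave -1.01 and leaving out R899X high RVSP 2 gave -0.18. The part of heart muscle RNA in the values of genes that heart also expresses, such as Des, Nexn, Hspb6 and Tpm1, was not tested.

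Pericyte markers outside the member list had medians of 0.00, 0.04 and 0.00 in the 3 pairwise comparisons, with 5, 6 and 6 of 11 higher. Fibroblast markers had medians of 0.06, 0.05 and -0.05 (8, 9 and 5 of 12 higher) and endothelial markers 0.05, -0.02 and 0.01 (7, 4 and 6 of 12 higher). The skeletal muscle markers Myh1, Myh2, Myh4, Actn3, Tnnt3, Tnni2 and Pvalb did not pass the filter on low intensities, and 5 of 12 did. These were Mb and Ckm, with the values given beside Hspb6, and Acta1, Atp2a1 and Mylpf, which lay between 54.5 and 174 on all arrays. The summed intensity of the 5 was 1212 and 1231 in controls, 2060 and 1687 with normal RVSP, and 1030 and 856 with high RVSP. The median differences of the 5 were 0.31, 0.20 and -0.01 in the 3 pairwise comparisons, with 4, 3 and 2 of 5 higher. Over all R899X mice against control, 7 of 12 fibroblast and 6 of 12 endothelial markers were higher, with medians of 0.05 and 0.02. Dcn (decorin), Pecam1 and Emcn were those at an unadjusted limma p under 0.05 there. Dcn, a fibroblast matrix proteoglycan, read 2856 and 2790 in controls and 3600 to 4136 in the R899X mice. Pecam1, an endothelial adhesion molecule, read 3293 and 4531 in controls and 5169 to 6112 in the R899X mice. Emcn, another endothelial marker, read 1620 and 1628 in controls and 1798 to 2794 in the R899X mice. None of these markers passed the adjusted test. The part of these cell types in the members' values was not tested.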

How the data were processed

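Per the labels, the mice got heparin, and RNA was column-purified from the PBS-flushed right lung. The authors deposited 1 intensity per probe set and array on a linear scale. How probes were summarised is not given here, but with 2% trimmed at each end all arrays averaged 500.0. Genes were named from the platform annotation, using probe sets with 1 symbol (34958 of 45101). The deposited intensities were turned into log2(intensity + 16), whose array medians spanned 0.127, without normalizing them again. The 64 control probe sets and the 18015 in the lower 40% by mean log2 value were left out, which left 27022. No detection calls were used, so whether dim probe sets exceed background is not known.

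limma 3.58.1 in R 4.3.3 modelled all 6 arrays by group (3 residual and 5.06 prior degrees of freedom, intensity trend), with two-sided tests and Benjamini-Hochberg adjustment at 0.05. Exact permutation of 2 against 2 arrays cannot go below p = 0.333, or 4 against 2 below p = 0.0667, so none was run. Labels call each array an individual mouse and name no batch or pairing. All members were named, each by its brightest probe set, and partners at an unadjusted p under 0.05. The members and lists were chosen with earlier results of these data known. The fit was tested on simulated data only for changes larger than any at the members' main probe sets. Its power for smaller differences was not tested.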

Additional observations from a re-analysis of the deposited data

Results flagged for a closer look

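Hspb6 was the 1 member whose normal RVSP and high RVSP mice lay on opposite sides of both controls. The difference of high from normal RVSP was -0.59 on the log2 scale (standard error 0.20, limma unadjusted p = 0.0187, adjusted p = 1). No group held enough arrays for a search of outlying arrays within groups.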

How the results depend on the processing

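Results were recomputed under 17 settings. The fit on only the arrays compared was not run for all R899X mice, which use every array, and 4 dim genes had no value with the lower 60% left out. The count of 0 called member probe sets was 0 in all of them except without control 1 and R899X normal RVSP 1 together, where it was 1 for high RVSP against control and 1 for high against normal RVSP, both times Itga8. A median over members was taken as moved when it changed by more than its spread between replicates, 0.0695. Without those arrays the medians were 0.128 for normal RVSP against control, -0.0619 for high RVSP against control and 0.033 for all R899X mice against control. With a gene read by the mean over its probe sets, the median for high RVSP against control was 0.106. Leaving out 1 array at a time gave medians from 0.0949 to 0.289 for normal RVSP against control, from -0.0619 to 0.0831 for high RVSP against control, from -0.206 to -0.109 for high against normal RVSP and from 0.0375 to 0.190 for all R899X mice, and 0 to 0 calls. Where a group is left with 1 array, that array is assumed to vary like the others. Single genes changed sign in 174 of 2262 recomputed differences, and none of these was a called difference. The cause of these changes was not tested. No paired analysis was possible because the labels give no replicate numbers that groups share. The number of arrays limits the precision of every value.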
